A study of Homo sapiens with 2 samples.

Results

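The death receptor pathway was described in SU-DHL-1 cells, a line established from anaplastic large cell lymphoma (ALCL) with the fusion gene NPM1-ALK. The members were 10 genes chosen by name: the receptors FAS, TNFRSF10A and TNFRSF10B, the ligands FASLG and TNFSF10, the adaptor FADD, the kinase RIPK1, the initiator caspases CASP8 and CASP10, and their inhibitor CFLAR. Of these, 9 had probe sets of their own in the platform annotation, 39 of the 41091 probe sets assigned to exactly 1 gene. RIPK1 had none and was not analysed here. No probe set was shared between a member and another gene in that annotation (0 probe sets).

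There were 2 samples, 1 per treatment. One culture received an siRNA directed at HLX, an NKL homeobox gene (siHLX), and the other a commercial negative control siRNA (siCTR). Both were SU-DHL-1 cells transfected by electroporation and harvested after the same time, and total RNA was hybridised to Affymetrix HG-U133 Plus 2.0 arrays. Both therefore represent 1 tumour line, and neither is an untransfected culture.

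Death receptors are membrane proteins of the TNF receptor superfamily. Binding of a ligand gathers FADD on the receptor tails, and FADD recruits the initiator caspases, which cleave themselves and then activate the executioner caspases. CFLAR, also known as c-FLIP, resembles CASP8 but lacks its enzymatic activity and can compete for FADD. In lymphocytes this route removes activated cells, and FAS ligand is also a weapon of cytotoxic T-cells and NK-cells. In the study, apoptosis of the transfected cells was followed by live-cell imaging with a dye that reports caspase activity. Those readings were not analysed here. A transcript level is not a caspase activity, so the array values stand beside that assay without a comparison.

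Values are log2 intensities, and a difference is the siHLX value minus the siCTR value of the same probe set. With 1 array per treatment, replicate error could not be estimated. No test was run, and the number of arrays limits the precision. Several probe sets of 1 gene read the same RNA repeatedly, and an SD over them is technical. A probe set was called above the level threshold when its mean over both arrays was at least 4.865, the median of all 54613 probe sets that were not controls. Signal does not compare between probe sets, so levels were set against this threshold and not against each other.

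HLX, the targeted gene, read 7.70 on the siHLX array and 8.15 on the siCTR array, on the single probe set of the gene, a log2 difference of -0.45. All 8 ALCL marker genes (ALK, TNFRSF8, GZMB, PRF1, IL2RA, TIMP1, BATF3 and IRF4) lay above the threshold, with differences between -0.13 and 0.06 on their brightest probe sets. Of the markers of other cells, 3 of 6 B-cell, 2 of 6 myeloid and 3 of 6 epithelial or stromal genes did so, and their highest readings were 7.43 on the siHLX array and 7.62 on the siCTR array. The part of these markers in the results was not tested. Poly-A controls spiked into the RNA were lower on the siHLX array by a mean of 0.29 (SD 0.18, 24 probe sets; log2 difference -0.29). Scaling both arrays to equal poly-A controls added that amount to every difference and moved the median over all named probe sets above the threshold from 0 to 0.29, so each direction below is taken against the bulk of named probe sets. The difference of HLX was -0.16 with that scaling.

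Among the members, 7 genes had at least 1 probe set above the threshold, and 26 of the 39 probe sets lay there. Over the whole platform, 12135 of 19775 genes had such a probe set, and 22453 of the 41091 named probe sets lay there. Of the 26 member probe sets, 16 were higher with siHLX and 10 lower. Over all 22453 named probe sets above the threshold, 47.5% were higher and 49.9% lower. The median difference was 0.06 over the member probe sets and 0 over all. Scaled to equal poly-A controls, 23 were higher and 3 lower, where 87.0% of all named probe sets were higher, and the median of 0.35 stood beside 0.29 over all. A single member probe set, of CASP10, reached 2-fold higher, and 0 reached 2-fold lower. Among all named probe sets above the threshold, 0.41% were higher by 2-fold or more and 0.401% lower. Lowering the limit to 1.5-fold, which 3.04% of all reached upwards and 2.97% downwards, added no member. The members were chosen with earlier results of these arrays known, so these counts are a description.

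**Figure D1:**
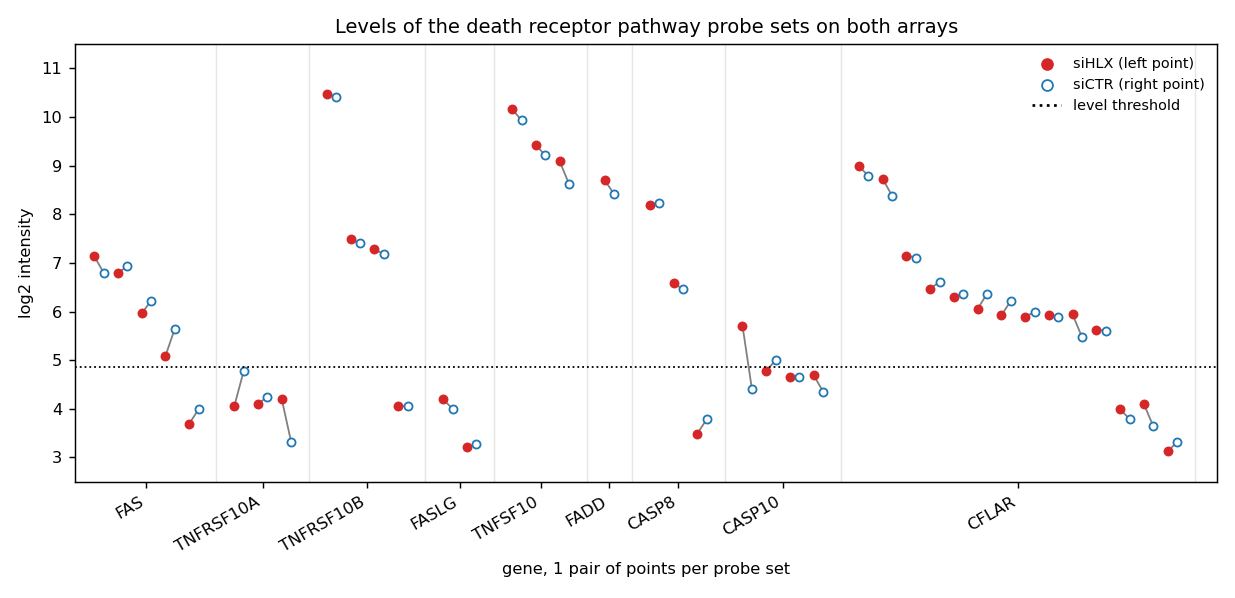
Log2 intensity (y axis) of each probe set of the 9 measured genes (x axis), with the siHLX array as filled points and the siCTR array as open points to their right; the dotted line is the level threshold of 4.865. TNFSF10 lies higher on the siHLX array on each of its 3 probe sets and FADD on its only 1, whereas the probe sets of FAS and CFLAR go both ways.

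TNFSF10 was higher on the siHLX array on each of its probe sets. It encodes TRAIL, the ligand of TNFRSF10A and TNFRSF10B, and is known as a gene induced by interferon. Its probe sets read 10.16 on the siHLX array against 9.93 on the siCTR array, 9.42 against 9.21, and 9.09 against 8.62. All 3 were therefore higher on the siHLX array, with differences of 0.23, 0.21 and 0.47 and a mean of 0.30 (SD 0.14 over 3 probe sets). Of the named probe sets within 0.5 log2 units of the same level, 5.08%, 8.73% and 0.823% lay as far or farther up. The widest of these differences came from a probe set with the suffix _x_at, which marks probes that can also bind similar sequences. On the log2 scale the mean exceeded the SD between its own probe sets, and it was close to the pooled SD of 0.27 between probe sets of 1 gene over all genes.

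Since TNFSF10 was the ligand with equal direction on every reading, its promoter is shown, from 250 bases before to 50 after the RefSeq start (chr3:172523381-172523680, GRCh38.p14, minus strand, written 5′ to 3′). The window was searched on both strands for TAAT, the core of many homeodomain sites, for the STAT motif TTCNNNGAA and for the interferon motif GAAANNGAAA, and matches are in capitals.
TNFSF10: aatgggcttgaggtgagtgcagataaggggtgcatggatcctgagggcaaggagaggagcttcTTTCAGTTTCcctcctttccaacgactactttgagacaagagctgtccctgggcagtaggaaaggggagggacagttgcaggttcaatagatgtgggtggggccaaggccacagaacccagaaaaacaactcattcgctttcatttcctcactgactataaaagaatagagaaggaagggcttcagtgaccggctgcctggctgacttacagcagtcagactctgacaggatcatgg
The only match was TTTCAGTTTC, the interferon motif read on the other strand, at -187 to -178 from the start. This motif occurs in 3.57% of the 35116 promoters of that length, TTCNNNGAA in 7.66% and TAAT in 50.2%. The interferon motif also matched in the FASLG window, in 1 of 3 windows of CASP8 and in 2 overlapping windows of the 3 of RIPK1. It matched in 0 windows of FAS, FADD and CFLAR. TNFRSF10A, TNFRSF10B and CASP10 had no window in this search. TAAT matched in every window of CFLAR and CASP8 and in the same 2 windows of RIPK1. It matched in 0 windows of TNFSF10, FASLG, FAS and FADD. TTCNNNGAA matched in 1 window of CASP8 and in no other member window. A match is a string of letters and not a bound site.

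FADD, the adaptor that links receptors to caspases, was read by 1 probe set. It read 8.70 on the siHLX array and 8.41 on the siCTR array, a difference of 0.29 and a ratio of 1.22. As far up lay 5.58% of the 3353 named probe sets of like level. A single probe set gives no repeat reading.

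The receptors showed 3 different pictures. TNFRSF10B, the TRAIL receptor also known as DR5, read 10.48 on the siHLX array against 10.40 on the siCTR array on its brightest probe set, 7.49 against 7.40, and 7.28 against 7.18. These differences of 0.08, 0.09 and 0.10 had the same sign and a narrow spread (SD 0.01 over 3 probe sets). They were nevertheless small, since 23.0% to 33.7% of named probe sets of similar level were as far up. The fourth probe set, below the threshold, read 4.05 on both arrays.

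FAS, also known as CD95, was read in both directions. Its brightest probe set read 7.14 on the siHLX array and 6.80 on the siCTR array, a difference of 0.34. The other 3 above the threshold were lower on the siHLX array, with 6.79 against 6.93, 5.96 against 6.22, and 5.08 against 5.65. Their differences of -0.14, -0.26 and -0.57 thus opposed that of the brightest reading. The fifth probe set, below the threshold, read 3.69 with siHLX and 3.99 with siCTR. The mean over the 4 readings above the threshold was -0.16 (SD 0.38). Equal poly-A controls would turn the readings of -0.14 and -0.26, and no direction of FAS is given. Their differences spanned 0.91, and 9.40% of the 649 genes with as many probe sets above the threshold spanned as much.

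TNFRSF10A, the TRAIL receptor DR4, lay below the threshold on both arrays. Its probe sets read 4.05 on the siHLX array against 4.78 on the siCTR array, 4.10 against 4.25, and 4.20 against 3.31. The differences of -0.73, -0.15 and 0.89 cover both directions and average 0.00 (SD 0.82 over 3 probe sets). FASLG, the ligand of FAS, was likewise below the threshold on both arrays, with 4.20 on the siHLX array against 3.99 on the siCTR array and 3.22 against 3.27. For neither gene do these readings give a direction.

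Agreement between probe sets was then compared over the genes. Of the 4 member genes read by 3 or more probe sets above the threshold, TNFSF10 and TNFRSF10B had all of them higher (2 genes), while FAS and CFLAR were mixed and 0 had all lower. Among the 2657 genes read by as many, 10.2% had all higher and 12% all lower on the siHLX array.

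**Figure D2:**
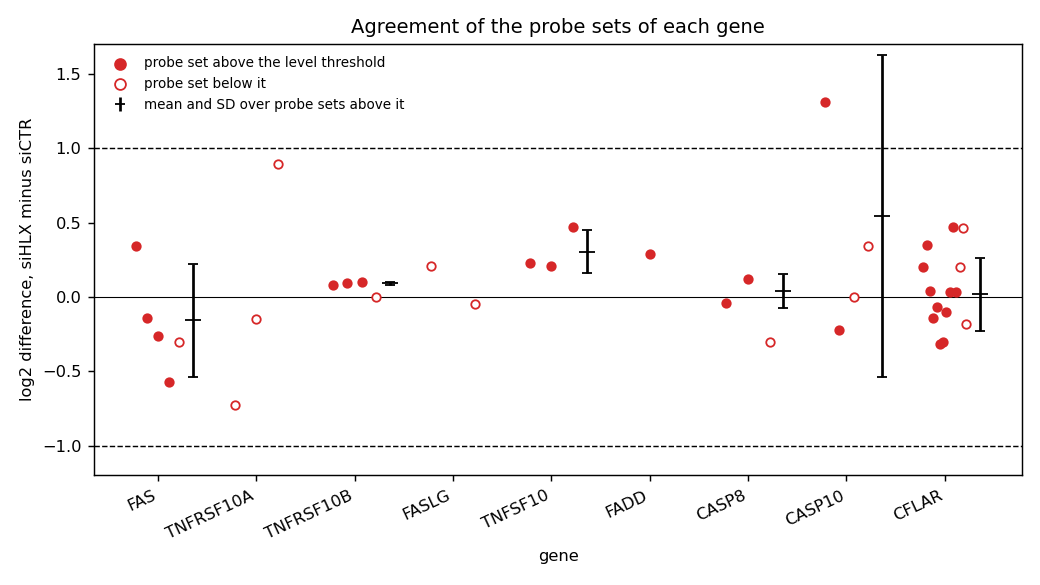
Difference in log2 intensity, siHLX minus siCTR (y axis), per probe set of the 9 measured genes (x axis); filled circles lie above the level threshold and open circles below it, black marks are the mean and SD over the filled circles, and dashed lines mark 2-fold. The 3 filled circles of TNFRSF10B lie between 0.08 and 0.10, whereas the 2 of CASP10 lie at -0.22 and 1.31.

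The initiator caspases CASP8 and CASP10 and the inhibitor CFLAR are neighbours on chromosome 2, where CASP10 lies between the other two in the RefSeq gene order. CASP8, the main initiator caspase of the pathway, read 8.20 on the siHLX array and 8.24 on the siCTR array on its brightest probe set, a difference of -0.04. Its other probe set above the threshold read 6.58 against 6.46, a difference of 0.12, and the dim one read 3.49 against 3.79. The readings above the threshold averaged 0.04 (SD 0.11 over 2 probe sets), less than their own spread. The brightest difference was 0.25 when the poly-A controls were set equal.

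CASP10, a close relative of CASP8 in humans, held the widest single difference of the pathway. One probe set read 5.71 on the siHLX array and 4.40 on the siCTR array, a difference of 1.31 and a ratio of 2.48, which 0.369% of the 6225 like-level probe sets reached. The siCTR reading lay below the level threshold. The other probe sets did not share it: the second above the threshold read 4.78 against 5.0, and those below it 4.65 on both arrays and 4.69 against 4.35. Their differences were -0.22, 0 and 0.34. The mean over all 4 probe sets was 0.36 (SD 0.68), and over the 2 above the threshold 0.55 (SD 1.08). The span of 1.53 between these 2 was reached by 0.156% of the 3212 genes with as many probe sets. The 2-fold count therefore rests on 1 of 4 readings.

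CFLAR had 14 probe sets, 11 of them above the threshold, of which 9 carried the suffix _x_at. The brightest readings were higher on the siHLX array, with 8.99 against 8.79 on the siCTR array, 8.73 against 8.38, and 7.15 against 7.11. These 3 gave differences of 0.20, 0.35 and 0.04. The next 5 by level were all lower on the siHLX array, with differences from -0.32 to -0.07 and readings of 6.05 against 6.37 at the most distant. The 3 dimmest above the threshold were again higher, at 0.03, 0.47 and 0.03, with 5.94 against 5.47 at the most distant. Over the 11 probe sets the mean was 0.02 (SD 0.25), so the differences cancelled within their spread. CFLAR is spliced into long and short forms. The probe sets were not assigned to them here, and cross-binding and splice forms cannot be told apart in these values.

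The differences of the members varied with level. Between levels of 8 and 10, 5 of 6 member probe sets were higher with siHLX, at a median of 0.25, while 46.7% of all 5891 named probe sets there were higher with a median of -0.01. These 6 came from TNFSF10, FADD, CASP8 and CFLAR, so probe sets of 1 gene are counted together. Between 6 and 8, 5 of 11 were higher and the median was -0.07, beside 48.8% and 0 over all. Between the threshold and 6, 4 of 7 were higher with a median of 0.03, beside 48.0% and 0 over all. The SD of the differences over all named probe sets was 0.43 in this lowest band and 0.17 between 8 and 10. Above 7.095, the 75th percentile of level, 10 of 11 member probe sets were higher and 1 lower, with a median of 0.20. Over all named probe sets there, 46.6% were higher and the median was -0.01. These 11 came from TNFRSF10B, TNFSF10, FADD, CASP8 and CFLAR, so probe sets of 1 gene are again counted together.

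Probe sets were also described by their design, without a test. The 5 member probe sets above the threshold without suffix, which are designed to match a single gene, belonged to TNFRSF10B, TNFSF10, FADD, CASP10 and CFLAR. Each of the 5 was higher with siHLX and their median was 0.29, whereas 48.0% of all 13051 named probe sets of that kind were higher. The reading of CASP10 passed the threshold only through the siHLX array, and the other 4 differences lay between 0.08 and 0.47. Below the threshold, the 10 member probe sets without _s_at or _x_at gave 4 higher and 5 lower, with a median of -0.08. Above the threshold, 21 member probe sets had the suffix _s_at or _x_at, which allow binding to several transcripts. They were split into 11 higher and 10 lower with a median of 0.03.

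**Figure D3:**
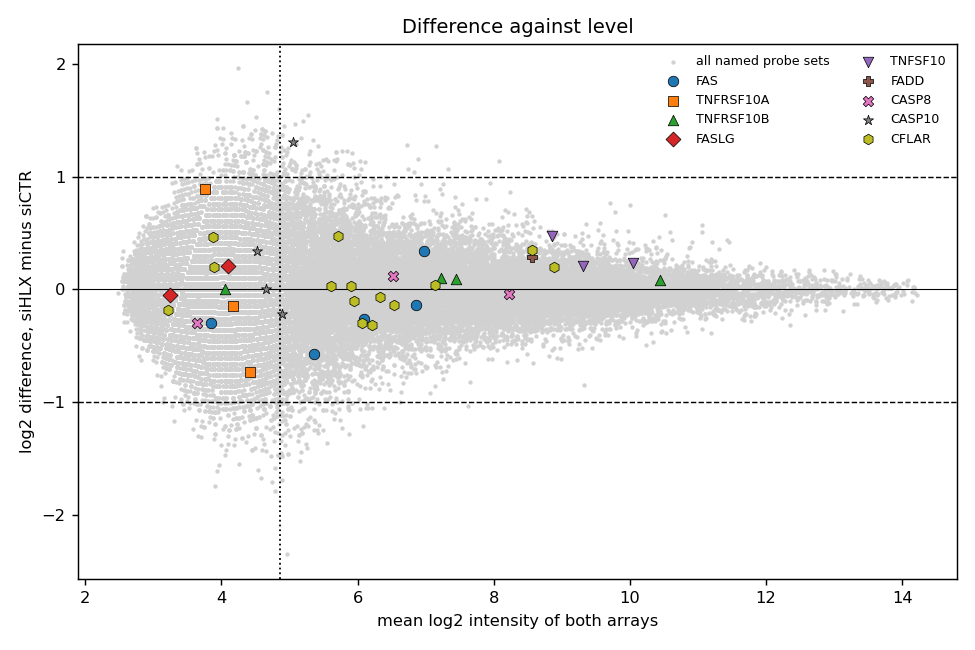
Difference in log2 intensity, siHLX minus siCTR (y axis), plotted over the mean log2 intensity (x axis), with all named probe sets in grey and the members in colour; 2-fold is marked by dashed lines and the level threshold by a dotted one. The grey cloud narrows with level, and the single member beyond 2-fold, CASP10 at 1.31, lies just right of the threshold.

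Read by the brightest probe set above the threshold, 6 of 7 member genes were higher with siHLX, at a median of 0.23. Over all 12135 genes with such a probe set, 47.4% were higher, 50.1% were lower and the median was -0.01. The exception among the members was CASP8 at -0.04. CASP10 is counted among the 6 through a reading that passed the threshold only on the siHLX array. For FAS the sign turned when its probe sets were averaged, and this count is therefore no firmer than the choice of reading.

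The genes around the members were taken from 8 lists of the pathway with 69 genes above the threshold. With siHLX, 34 of these were higher and 33 lower, the median was 0, and 0 reached 2-fold. Of the other receptors with a death domain or decoy function, 3 were higher and 3 lower (6 of 9 with probe sets above the threshold). TNFRSF10D, a decoy for TRAIL, read 10.49 on the siHLX array and 10.34 on the siCTR array, and its other probe set also lay higher (0.32). TNFRSF1A, the main TNF receptor, read 8.33 against 8.15. TNFRSF10C, the other TRAIL decoy, read 5.34 against 5.89, but its dimmer probe sets ranged from -0.04 to 0.36.

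Receptors of the superfamily without a death domain were split into 6 higher and 7 lower, with a median of -0.05. TNFRSF8, the CD30 antigen of ALCL, read 9.79 on the siHLX array and 9.92 on the siCTR array. LTBR, the lymphotoxin receptor, was highest at 0.45, yet its other probe sets lay between -0.23 and -0.21. TNFRSF18 was lowest at -0.58, with a siHLX reading of 4.65 below the threshold and 0.11 on its other probe set. TNFRSF9, a costimulatory receptor, followed at -0.44, with -0.32 and 0.58 on the others. The other ligands gave 3 higher and 3 lower. TNFSF14 and CD70 were both at 0.38, with siCTR readings of 4.74 and 4.78 below the threshold. The other probe set of TNFSF14 had -0.15. TNFSF8, the CD30 ligand, was at -0.47, with a siHLX reading of 4.65 below the threshold. LTB was at -0.37, with 0.00 on its other probe set. TNF itself lay below the threshold, with 3.99 on the siHLX array and 3.69 on the siCTR array. Equal poly-A controls turned TNFRSF8 to 0.16.

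Factors of the receptor complexes gave 4 higher, 6 lower and 1 equal, with a median of -0.03. RNF31, the catalytic subunit of the linear ubiquitin ligase, read 6.57 on the siHLX array and 6.01 on the siCTR array (0.56), on an _x_at probe set. Its second probe set was also higher (0.68), with 5.37 against a siCTR reading of 4.69 below the threshold. The other subunits were close to 0 on their brightest probe sets: RBCK1 read 8.49 on both arrays, with 0.35 and 0.38 on its other probe sets, and SHARPIN read 7.04 against 7.03. The lowest of the list, against the bulk of named probe sets, were the deubiquitinase CYLD at -0.42, OTULIN, which cleaves linear ubiquitin chains, at -0.32 and TNFAIP3, a ubiquitin-editing inhibitor of NFkB signalling also known as A20, at -0.30. OTULIN and TNFAIP3 were lower on all of their probe sets, whereas 1 of the 7 of CYLD was higher (0.41). When the poly-A controls were set equal, these brightest readings were -0.13, -0.03 and -0.01. TRADD, an adaptor of TNF receptor signalling, had -0.03.

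Modulators of FAS and FADD stayed close to 0 at a median of 0.01, with 7 higher and 6 lower. CRADD, an adaptor with a death domain, was highest at 0.35 and FAF1, a FAS-binding factor, lowest at -0.19. The other probe sets of FAF1 went both ways, from -0.61 to 0.35. In the necroptosis list RIPK3, the kinase that phosphorylates MLKL, read 5.82 on the siHLX array and 5.0 on the siCTR array, a difference of 0.82 from a single probe set close to the threshold. MLKL, which permeabilises the membrane, read 9.56 against 9.57.

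Downstream of the initiator caspases, differences were small. CASP6 read 7.33 on the siHLX array and 7.14 on the siCTR array, and XIAP, an inhibitor of executioner caspases, 9.59 against 9.66. Of this list 4 genes were higher, 4 lower and 1 equal, between -0.19 for ACIN1 and 0.19 for CASP6. BID, which carries the caspase signal to mitochondria, had 0.17 on its brightest probe set and -0.05 and -0.39 on the others. APAF1 was highest of the mitochondrial genes at 0.33, with -0.14 and 0.31 on its other probe sets. BAK1 was lowest at -0.32, and CASP9 read 7.84 against 7.83. Since this is bulk RNA, fewer cells of one state and less RNA per cell cannot be told apart.

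**Figure D4:**
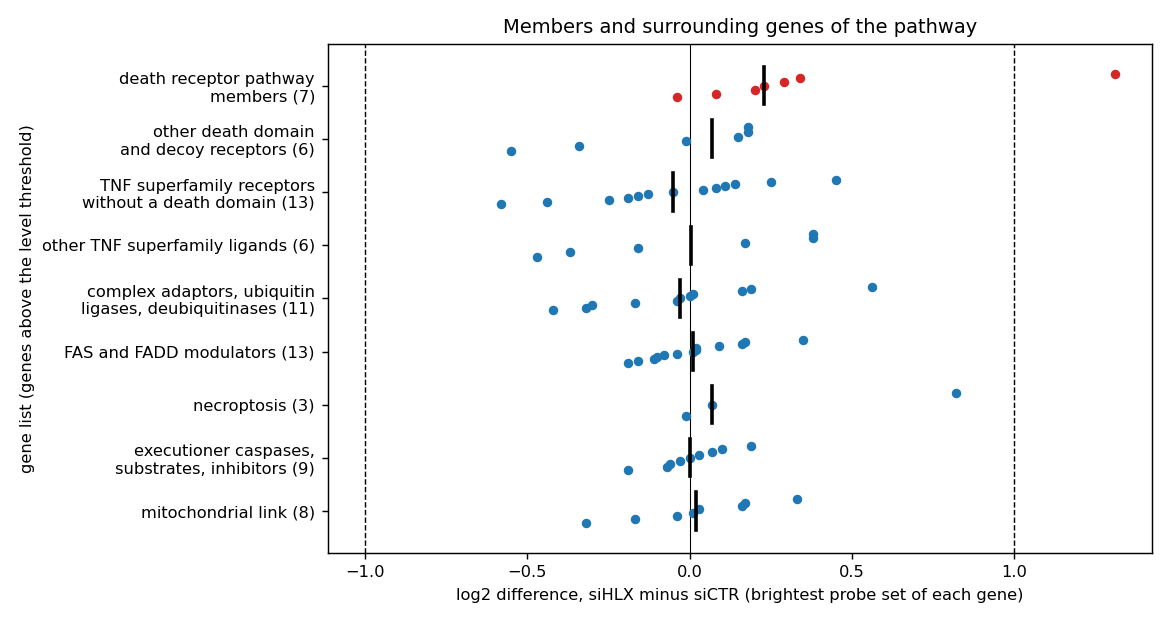
Difference in log2 intensity, siHLX minus siCTR (x axis), of genes above the level threshold, each read by its brightest probe set, for the members (top row, red) and 8 lists of surrounding genes (y axis, number of genes in parentheses); vertical bars are medians and dashed lines mark 2-fold. The median of the members lies at 0.23 and those of the lists between -0.05 and 0.07, with the points of all rows overlapping.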

How the data were processed

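The authors deposited log2 intensities per probe set. According to the methods, values were RMA background corrected and quantile normalised, with RMA, limma and affy named in the processing notes of the submitters (versions not given in the sources used here). Quantile normalisation gives both arrays the same overall brightness and thereby hides any shift common to most transcripts. Of 54613 probe sets that were not controls, 41091 were assigned to 1 gene, 1801 to several and 11721 were unnamed in the platform annotation. Symbols were updated through Entrez identifiers with RefSeq (GRCh38.p14).

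Groups followed the treatment in the labels. Differences, counts and medians were computed with Python 3.11.15, pandas 2.3.3 and numpy 2.4.6. The code was checked on simulated data with large added shifts, which does not measure the precision of the differences given here. Each gene was read by the brightest of its probe sets over both arrays. The members and lists were chosen with earlier results of these data known. Named were all members, HLX, TNFRSF8, ALK, selected caspases with BID and XIAP, and up to 3 of the most positive and most negative genes of each list. RBCK1, SHARPIN, TRADD and TNF were added for their roles after their values were seen. Alternatives were other scalings (medians, poly-A or hybridisation controls, quantiles), removal of the trend with level (lowess, fraction 0.2), other level thresholds, probe set types, a 1.5-fold limit and means of probe sets.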

Additional observations from a re-analysis of the deposited data

How the results depend on the processing

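Centring on medians, equal hybridisation controls, quantile normalisation and removal of the trend with level kept every count of member probe sets within 1.5 times, and the median within the SD between probe sets. With equal poly-A controls 3 member probe sets were lower instead of 10, and the median was 0.35. Without probe sets of the suffixes _s_at, _x_at and _a_at, 5 were higher and 0 lower. Without a level threshold 21 of 39 were higher and 16 lower, beside 46.8% and 49.4% of all named probe sets. Above the 75th percentile of level 10 of 11 were higher, 1 lower and 0 at least 2-fold higher, where 3 of all 11941 named probe sets were. Equal poly-A controls add the same 0.29 to every difference, members or not, and CASP8 at -0.04 became positive thereby. The mean of all probe sets turned FAS and TNFRSF10A, the mean of those above the threshold turned FAS and CASP8, and leaving out the suffixed probe sets turned FAS. The causes were not tested. No array could be left out, and no paired analysis was possible because each treatment had 1 array.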
